A study of Caenorhabditis elegans with 2 samples.

Results

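The ipla genes of the nematode Caenorhabditis elegans, ipla-1 to ipla-7, are named for calcium-independent phospholipases, and they were examined here for binding of the transcription factor MDL-1. All genes with a symbol of ipla- and a number were taken, which gave 7 of 19973 protein-coding genes on the nuclear chromosomes. The family was chosen from earlier results on these data, because the promoter peak of ipla-6 had the highest pooled score of all protein-coding promoters, so that score and rank are given as a description with no test. Each gene was read in a window from 5 kb upstream of its 5' end to its 3' end.

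Phospholipases A of this kind cut a fatty acid from a membrane phospholipid without needing calcium ions, which leaves a free fatty acid and a lysophospholipid. The reaction opens the remodelling cycle in which acyltransferases then put another fatty acid onto the lysophospholipid. The family name does not describe all members equally: ipla-1 encodes the worm's intracellular phospholipase A1, known for setting the fatty acids of phosphatidylinositol and for a part in the asymmetric division of epidermal seam cells. MDL-1 belongs to the MAD family of helix-loop-helix zipper factors. With its partner MXL-1 it recognises the E-box CACGTG, and MAD proteins are known in mammals as repressors that oppose MYC.

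The data are from chromatin immunoprecipitation and sequencing (ChIP-seq) of 2 biological replicates of 1 group, whole L1 larvae (the first larval stage) of mixed sex. Animals were of strain OP106, which has the unc-119(ed3) III allele and the integrated transgene wgIs106, and eGFP-tagged MDL-1 was the protein precipitated. The protein mapped is therefore a transgenic fusion, and in whole animals strong binding in few cells and weak binding in many cannot be told apart. No other strain, stage or mock precipitation was compared, and the peak lists hold no expression values, so the labelled stage could not be checked against marker genes.

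Peaks were read from 4 lists in the ce11 build. The optimal list, which the authors filtered by the irreproducible discovery rate (IDR), holds 3870 peaks, and 3 relaxed lists (both replicates pooled, replicate 1, replicate 2) hold 30000 peaks each. The score of a peak is the authors' caller's own value and has no stated scale, so scores are compared only within a list, and ranks run from 1 for the highest score. The IDR list is the top of the pooled list, so pooled ranks up to 3870 are IDR peaks. The relaxed lists were deposited as input for the IDR step and hold background as well as peaks. In the pooled list, peaks of ipla windows below the IDR list had −log10 q-values of 0.0842 to 1.42. Those of the IDR peaks in these windows were 3.88. Read totals are not in the lists, and depth is unknown.

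The DNA under the summits, the positions of highest signal, differed in its E-boxes. The 5 IDR summits in ipla windows are shown here, with the only summit below the IDR list that had CACGTG within 50 bp, at ipla-7. Sequences are the plus strand of ce11, 5' to 3', with CACGTG in capitals.
ipla-6, main peak, chrIV:6336747-6336947: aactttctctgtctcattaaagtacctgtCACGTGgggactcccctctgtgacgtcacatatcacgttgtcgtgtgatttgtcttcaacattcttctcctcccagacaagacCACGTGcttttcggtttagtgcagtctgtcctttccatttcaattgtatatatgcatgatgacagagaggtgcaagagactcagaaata
ipla-6, further peak, chrIV:6336148-6336248: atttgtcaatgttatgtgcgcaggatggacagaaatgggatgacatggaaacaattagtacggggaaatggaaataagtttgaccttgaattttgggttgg
ipla-3, chrV:20729113-20729193: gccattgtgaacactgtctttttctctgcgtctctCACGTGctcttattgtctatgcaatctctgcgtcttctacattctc
ipla-2, chrX:9838272-9838372: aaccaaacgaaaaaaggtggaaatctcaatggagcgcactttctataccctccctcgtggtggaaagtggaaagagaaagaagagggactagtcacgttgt
ipla-1, chrII:4603179-4603279: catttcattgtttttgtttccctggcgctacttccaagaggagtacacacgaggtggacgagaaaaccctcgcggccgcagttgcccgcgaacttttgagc
ipla-7, below the IDR list, chrIV:10059389-10059469: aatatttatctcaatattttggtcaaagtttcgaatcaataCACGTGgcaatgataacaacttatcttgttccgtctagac

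The main ipla-6 peak held 2 copies of CACGTG, whose first bases lie 91 bp and 8 bp before the summit and 83 bp apart. Among all IDR summits, 1.34% had 2 or more copies within 100 bp. The ipla-3 summit lay on its E-box, in the first intron, with the summit 2 bp from the middle of the hexamer. The peaks of ipla-1 and ipla-2 and the further peak of ipla-6 had none, and the nearest CACGTG to them lay 10282 bp, 1401 bp and 491 bp away. So 2 of the 5 IDR summits had CACGTG within 50 bp, against 13.2% of all IDR summits. This count includes the ipla-6 peak, for which the family was chosen, and 5 summits are too few to set it apart from that share. The hexamer is its own reverse complement, so both strands were read at once, and a match describes the sequence without showing that MDL-1 occupies it.

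Of the 7 genes, ipla-1, ipla-2, ipla-3 and ipla-6 had at least 1 IDR summit in the window, against 27% of all protein-coding genes. Long windows collect more summits, and the ipla windows are 7.45 to 16.4 kb long (median 9.69 kb), against a median of 7.03 kb for all protein-coding genes. Of the 7362 protein-coding genes with windows in that range of lengths, 33.2% had an IDR summit. The 7 windows together cover 76.7 kb and held 5 IDR summits, or 0.651 per 10 kb, against 0.4 per 10 kb of all protein-coding windows. In the promoter, taken from 1000 bp before the 5' end to 200 bp past it, ipla-2, ipla-3 and ipla-6 had an IDR summit, against 12.8% of all protein-coding genes. Both counts include ipla-6, for which the family was chosen, and 7 genes are too few to set them apart from these shares.

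**Figure D1:**
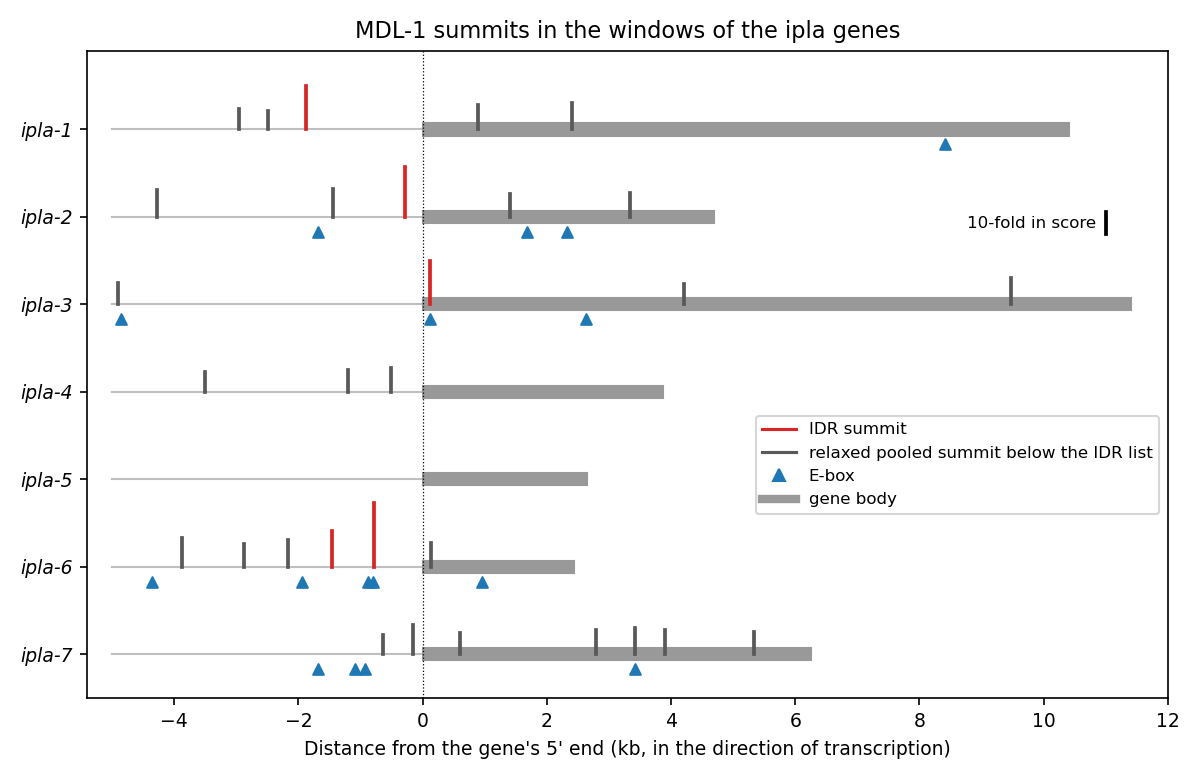
Summits in the 7 ipla windows by distance from the 5' end in kb (horizontal axis), with 1 row per gene. Sticks are summits of the pooled list, their height above the row is log10 of the pooled score (scale bar at the right), red marks the 5 IDR summits, grey the 25 below the IDR list, triangles the 16 E-boxes and grey bars the gene bodies; the tallest stick stands at ipla-6, and ipla-5 has none.

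The gene ipla-6 (WBGene00022233, chromosome IV, 6337653 to 6340098, plus strand) had the highest peak. It spanned 6336683 to 6337072, with the summit at 6336867 in intergenic sequence, 786 bp upstream of the 5' end. Its pooled score was 626 at rank 4. In replicate 1 the peak had rank 11 with a score of 295, and in replicate 2 it had rank 1 with a score of 329, each on its own list's scale. The summits of replicate 1 and replicate 2 lay 7 bp and 0 bp from the pooled one. At 390 bp it was wider than the commonest width of 310 bp, from which 17.6% of IDR peaks deviate. The first place among promoters was close and was not kept in replicate 1. The peak at pooled rank 5, in the promoter of tasp-1, had a pooled score of 623. It ranked 2 in replicate 1, above the ipla-6 peak, and 10 in replicate 2, below it.

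The ipla-6 peak stands between diverging genes. The gene on the other side is mif-4 (6335230 to 6335994, minus strand), which encodes a relative of macrophage migration inhibitory factor. Its 5' end is 873 bp from the summit, so the peak lies in the promoter windows of both genes and is only slightly nearer to ipla-6. The further IDR summit of the ipla-6 window, at 6336198, is nearer to mif-4, at 204 bp, than to ipla-6, at 1455 bp. This further peak had a pooled score of 35.7 at rank 3541, with ranks of 6176 in replicate 1 and 3083 in replicate 2. It is the member peak just inside the IDR list, whose lowest score is 32.7, and in replicate 1 it ranks outside the highest 3870. The main peak had 17.6 times the pooled score of this next highest peak of the window.

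Around ipla-6, 4 more summits stood below the IDR list, and all 4 had a summit of both replicates within 100 bp. The highest, at 6333783 with a pooled score of 17.7 and rank 7233, lies 432 bp from the 5' end of blos-2, which encodes a subunit of the lysosome-related organelle complex BLOC-1. The others lie in a coding exon of blos-2, an intron of mif-4 and an intron of ipla-6, the last at 142 bp downstream of the ipla-6 5' end with rank 13843. Their pooled scores ran from 9.91 to 15.1.

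The gene ipla-2 (WBGene00009801, chromosome X, 9833352 to 9838039, minus strand) had the next highest member peak. Its summit at 9838322 is intergenic, 283 bp upstream of the 5' end, and the next protein-coding 5' end, that of rrc-1, is 7034 bp away. The pooled score was 159 at rank 314, with rank 395 (score 87.7) in replicate 1 and rank 512 (score 54.6) in replicate 2, and the replicate summits lay 0 and 14 bp from the pooled summit. The peak was narrow, 174 bp wide at 9838232 to 9838405. Of the 2560 genes with an IDR summit in the promoter, 91.5% had a lower highest peak. Of the 4 further summits in the window, 2 lie in coding exons of ipla-2 and 2 upstream, of which that at 9842312 overlaps the annotated non-coding RNA R07B1.23. Their pooled scores ran from 10.3 to 16.3.

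The gene ipla-3 (WBGene00012319, chromosome V, 20717869 to 20729272, minus strand) had its IDR summit at 20729153, 119 bp downstream of the 5' end of the gene. The pooled score was 83.8 at rank 1100, and the ranks of 1219 (score 46.9) in replicate 1 and 1060 (score 38.3) in replicate 2 were close to it. Of the genes with a promoter IDR summit, 67.6% had a lower highest peak. The annotation has 7 transcripts of ipla-3 with 5 different 5' ends. The summit lies downstream of the 5' ends at 20729262 to 20729272 and upstream of that at 20728754, so it stands between alternative starts of the gene. Below the IDR list, the summit at 20719804 (rank 9582) was the only further one of this window with both replicates within 100 bp, and it lies 223 bp upstream of the start of the short transcript W07A8.2d.1. Of the other 2, that at 20725066 in an intron of ipla-3 was matched only in replicate 2, and that at 20734185, in an intron of the DnaJ gene dnj-25, in neither.

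The gene ipla-1 (WBGene00019747, chromosome II, 4590939 to 4601356, minus strand), the phospholipase A1 gene, had an IDR summit in its window but not in its promoter. The summit at 4603229 is 1873 bp upstream of ipla-1, beyond the whole neighbouring gene coa-3, a cytochrome c oxidase assembly factor gene on the same strand. That gene, at 4601355 to 4602633, covers the whole 1000 bp upstream of the ipla-1 5' end, so the upstream part of the promoter window is coa-3 sequence. The summit is 198 bp from the 5' end of F35D11.4 and 596 bp from that of coa-3. It stands in the promoter windows of those genes, which diverge from each other. The pooled score was 78.3 at rank 1239, with rank 1990 (score 33.8) in replicate 1 and rank 675 (score 47.7) in replicate 2. The replicate summits lay 5 and 37 bp from the pooled one, and 37 bp was the largest such offset of the 5 member IDR summits. In the ipla-1 gene itself, with 9 annotated transcripts, 2 summits stood below the IDR list. That at 4598944 (pooled score 15.2, rank 8640) lies 58 bp downstream of the start of transcript M03A1.6c.1, had rank 5688 in replicate 1 and had no replicate 2 summit within 100 bp. The other 2 below the IDR list lie past the IDR summit, at 4603847 in a coding exon of F35D11.4 and at 4604312 beyond that gene, each matched in 1 replicate.

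**Figure D2:**
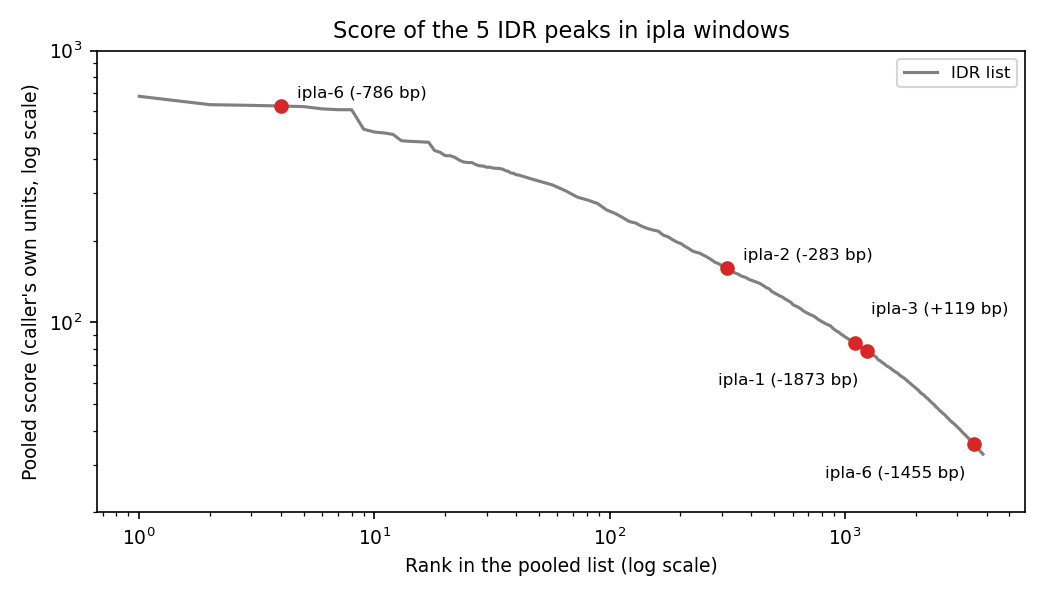
Pooled score against pooled rank (both axes on a log scale) for the IDR list (grey line) and for the 5 IDR peaks of ipla windows (red points, with the distance from the 5' end of the gene). The main ipla-6 peak sits near the top at rank 4, the others at ranks 314 to 3541.

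Among ipla-4, ipla-5 and ipla-7 there was no IDR summit in any window, and a peak missing from a relaxed list is only below the end of that list. The gene ipla-7 (WBGene00011423, chromosome IV, 10056591 to 10062849, minus strand) had 7 summits below the IDR list, the most of the 7 genes. The highest, 160 bp upstream of the 5' end at 10063009, had a pooled score of 18.3 at rank 7015, the member peak just outside the IDR list. It ranked 17229 in replicate 1 and 5562 in replicate 2. Distances for ipla-7 are from the Ensembl 5' end at 10062849. RefSeq annotates only the shorter transcript, with its 5' end at 10059178, from which this summit is 3831 bp upstream, while for the other 6 ipla genes both annotations have the same 5' end. Of the other 6, 4 were matched only in replicate 1. These include the summit at 10059429, which lies next to the E-box shown above. It is in an intron of the longer transcript and 251 bp upstream of the start of the shorter one. Its pooled score was 14.4 at rank 9285, with rank 6273 in replicate 1 and no replicate 2 summit within 100 bp.

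For ipla-4 (WBGene00017026, chromosome I, 3690145 to 3694021, minus strand), all 3 pooled summits had a replicate 2 summit within 100 bp, and replicate 1 had no summit anywhere in the window. The highest, 502 bp upstream of the 5' end in an intron of the mismatch repair gene msh-2, had a pooled score of 10.6 at rank 14054 and rank 4983 in replicate 2. The lowest lies 28 bp from the 5' end of msh-2 and 579 bp from that of the checkpoint gene hus-1, at rank 24559. The gene ipla-5 (WBGene00019229, chromosome IV, 8715247 to 8717900, plus strand) had no summit in the pooled list or in replicate 2. Its only summit was in replicate 1, 766 bp downstream of the 5' end, at rank 11011. With 6 of 7 windows holding a relaxed pooled summit, against 73.8% of all protein-coding windows, such a summit is common and says little about a gene.

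**Figure D3:**
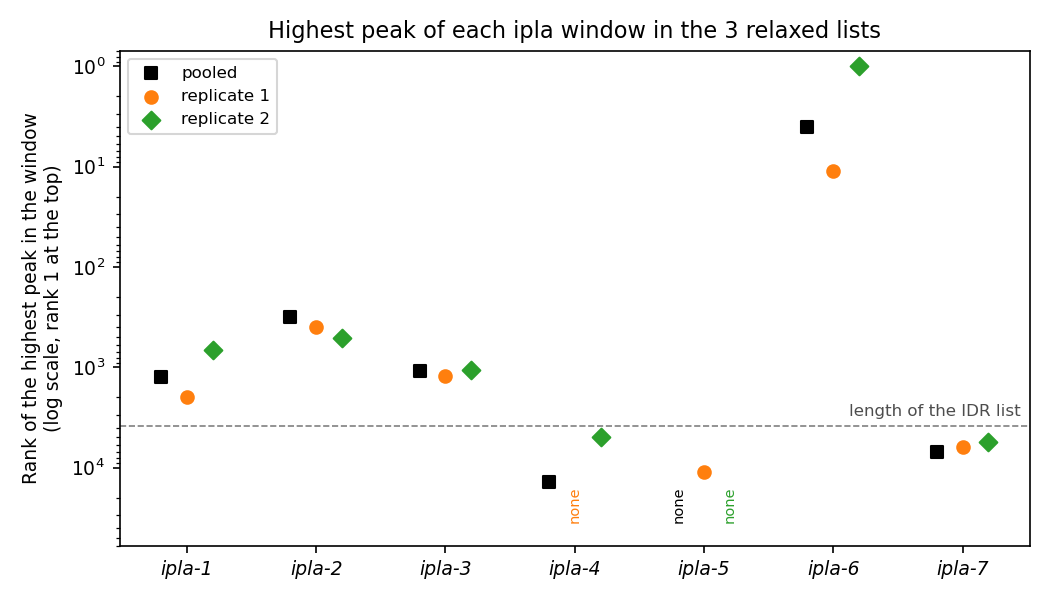
Rank of the highest peak in each ipla window (log scale, rank 1 at the top) in the pooled list (squares), replicate 1 (circles) and replicate 2 (diamonds); "none" marks a list with no summit in the window. The genes ipla-1, ipla-2, ipla-3 and ipla-6 lie above the dashed line at rank 3870 in all 3 lists, and ipla-4, ipla-5 and ipla-7 below it where they have a summit.

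The IDR list is the top of a list made from both replicates, so a high share found in both is no independent support. An IDR peak need not have a summit in each replicate. All 5 member IDR summits had a summit of both replicates within 100 bp, against 94.5% of all IDR summits. Of the 25 member summits below the IDR list, 8 had both, 15 had only 1 of the replicates and 2 had neither, against 20.2% of all such summits with both. Neither count sets the family apart from these shares. Those 8 were 4 at ipla-6, 2 at ipla-7 and 1 each at ipla-2 and ipla-3. The order of the 4 genes with an IDR peak was not the same everywhere. By their highest peak, ipla-6 was first and ipla-2 was next in the pooled list and in both replicates. Next came ipla-3 in the pooled list and replicate 1 (ranks 1100 and 1219, against 1239 and 1990 for ipla-1), but ipla-1 in replicate 2 (rank 675, against 1060 for ipla-3). With 1 value per replicate, neighbours in this order such as ipla-3 and ipla-1 cannot be told apart.

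Most E-boxes near the family carried no peak. The 7 windows held 16 CACGTG sites, 2.08 per 10 kb, against 1.77 per 10 kb of the nuclear genome. An IDR summit lay within 50 bp of 2 of the 16, the site nearer to the ipla-6 summit and the ipla-3 site in the intron, against 3.02% of 17729 sites in the genome. With relaxed pooled summits it was 3 of the 16, the third being the ipla-7 site in the intron, against 8.31% of sites in the genome. Both counts include the site at the ipla-6 peak, for which the family was chosen, and 16 sites are too few to set them apart from these shares. Among the sites with no such summit, 6 of the 16 lie in coding exons, such as those of ipla-2 at 9835711 and 9836364. Upstream of ipla-7, 3 sites stand at 928, 1082 and 1684 bp from the Ensembl 5' end, and none had a summit of any of the 4 lists within 50 bp. The upstream copy of the ipla-6 pair also had none within 50 bp, being 91 bp from the summit. In ipla-4 and ipla-5 windows there was no CACGTG.

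The genes whose promoter peak was most like that of ipla-6 were sought among 1852 other protein-coding genes with a promoter IDR peak at their own nearest 5' end and a summit of both replicates within 100 bp. Likeness was the Euclidean distance between the log10 ranks in the 3 relaxed lists. The nearest were C36E6.2 at a distance of 0.861, the translation factor gene iff-2 at 1.07, the Pumilio gene puf-9 at 1.24 and the zinc finger gene ztf-7 at 1.24. The peak of C36E6.2, with ranks of 9, 14 and 6 in the pooled list, replicate 1 and replicate 2, held CACGTG within 50 bp. Those of iff-2, puf-9 and ztf-7 did not. Their summits lay 78, 77, 295 and 339 bp from the 5' end, all nearer than the 786 bp of ipla-6.

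Genes of other lipid steps also had promoter peaks, all with lower scores than those of ipla-6 and ipla-2. They were taken by symbol as phospholipases C and D, genes that make phospholipid head groups, acyltransferases and atgl-1. In all, 9 of 45 such genes had a promoter IDR summit, against 12.8% of all protein-coding genes. In the window from 5 kb upstream to the 3' end it was 20 of 45, against 27% of all protein-coding genes. This window count takes in summits nearer to another gene, such as those of plc-2, plc-1, pcyt-1 and acl-11, and ckb-2 and ckb-3 share the same summit. The windows of the 45 genes have a median of 8.69 kb, longer than the 7.03 kb of all protein-coding genes, and no share for windows of matched length was taken. Among phospholipases C and D it was 1 of 7 in the promoter, pld-1 with a pooled score of 89.8 at rank 980, but that summit is nearer to C04G6.2. Among genes that make phospholipid head groups it was 4 of 18. They were the choline and ethanolamine phosphotransferase genes cept-2 (score 109, rank 677) and cept-1 (53.1, rank 2209), the phosphoethanolamine methyltransferase gene pmt-1 (102, rank 787) and the S-adenosylmethionine synthetase gene sams-1 (33.0, rank 3836). The pmt-1 peak had 2 copies of CACGTG within 50 bp and the sams-1 peak 1. The sams-1 peak ranked 3099 in replicate 1 and 13561 in replicate 2.

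Among acyltransferases, taken by the symbols acl- and mboa- whether or not they act after a phospholipase A, 4 of 19 had a promoter IDR summit. They were mboa-3 (score 63.8, rank 1716), the lysophosphatidylinositol acyltransferase gene mboa-7 (59.2, rank 1920), acl-6 (46.6, rank 2589) and acl-1 (34.9, rank 3606). None of these 4 peaks had CACGTG within 50 bp. The mboa-7 peak ranked 1185 in replicate 1 and 10008 in replicate 2, outside the highest 3870 there. The triglyceride lipase gene atgl-1 had no promoter IDR summit. By these counts the lists stood at 14.3%, 22.2% and 21.1% in the promoter, in the order given, beside 12.8% of all protein-coding genes, and no test was made of them.

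**Figure D4:**
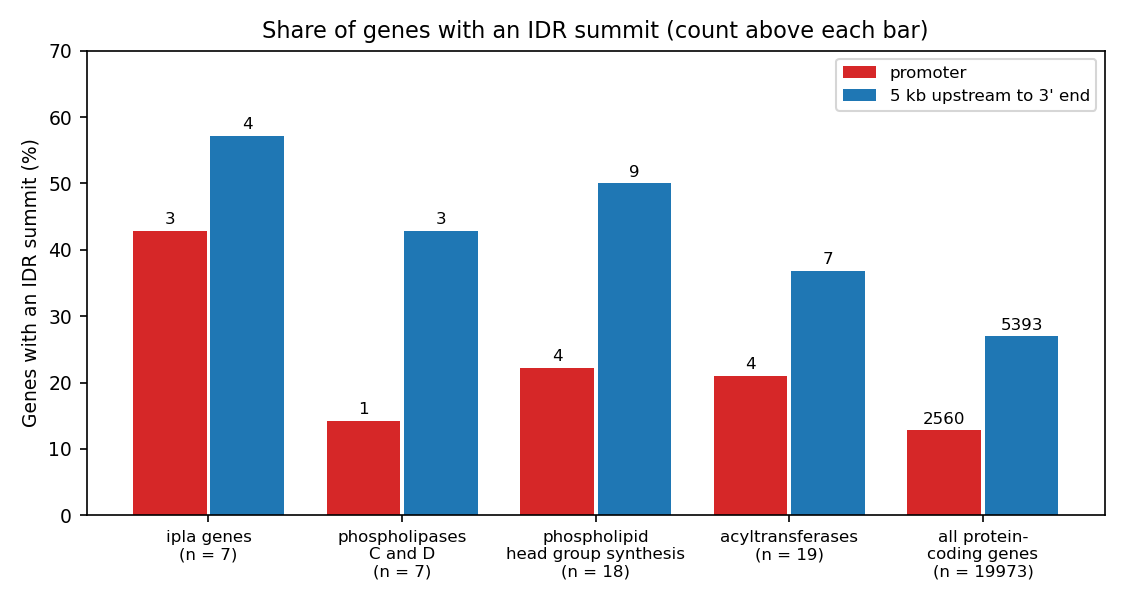
Share of genes in percent (vertical axis, from 0) with an IDR summit in the promoter (red) and from 5 kb upstream to the 3' end (blue), for the ipla genes, 3 phospholipid lists and all protein-coding genes, with the count of genes above each bar and n below. The ipla bars stand for 3 and 4 of 7 genes, and all protein-coding genes for 2560 and 5393 of 19973.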

How the data were processed

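Peak positions, scores and summits came from 4 deposited lists in ce11: the optimal IDR list and the relaxed lists of pooled replicates, replicate 1 and replicate 2. Per the deposited file inventories, the authors called relaxed peaks in each replicate and on both pooled, naming a control for the pooled ce11 list and none for the replicate ce11 lists. For the aligner, caller, versions and IDR cut-off of the authors, details were not given in the sources used here. Library fragments were 150 to 350 bp per the labels. The deposited score comes from the authors' peak caller, with no stated scale. The deposited q-value column, on the −log10 scale by its format, was read but used for no ranking, and the summit column is an offset in bp. The ce10 lists were not used here, since no ce10 annotation was at hand.

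Coordinates are 1-based. Genes came from Ensembl release 115 for WBcel235, which is ce11, and no peak ended beyond its chromosome. Sequences are from RefSeq's WBcel235 genome. Summits were assigned to windows, matched between lists within 100 bp and scanned for CACGTG within 50 bp, counting whole copies only. The functions were checked on simulated data. Members and gene lists were chosen with earlier results of these data known. All 7 ipla genes are named, then the 4 genes most like ipla-6, and up to 4 members of each list by their highest promoter peak. Symbols that the annotation does not match were left out of the lists. Peaks and genes are not replicates, and with 1 group and members chosen from the readout no test was made. Alternatives covered peak thresholds, each replicate left out, windows, assignment and distances. Analyses used Python 3.11.15.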

Additional observations from a re-analysis of the deposited data

How the results depend on the processing

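With 2 replicates of 1 group, no paired analysis was possible because there is no other group to pair with. Leaving out a replicate (the highest 3870 peaks of the other) left the same 4 ipla genes with a window summit (26.6% to 26.9% of all protein-coding genes) and the same 3 with a promoter summit (12.3% to 12.4%), while the rank of the ipla-6 promoter peak ran from 1 to 11. Counting gene bodies only, 1 gene (ipla-3) and 1 summit were left, beside 4.39% of all protein-coding genes. Giving each summit to the nearest 5' end only, 3 of the 5 summits were left, without those nearer to mif-4 and F35D11.4. With a promoter of 500 bp upstream to 100 bp downstream, only ipla-2 of the ipla genes and 5 genes of the phospholipid lists had a summit, beside 10.1% of all protein-coding genes. The lists had 5 genes with the highest-scoring 1935 peaks, 20 with the highest 7740 pooled peaks and 16 with a promoter of 2000 bp upstream, in place of 9, while the share of all protein-coding promoters was 7.16%, 20.6% and 16.7% in the same order. Those 7740 peaks added ipla-7 to both ipla counts, beside 41.8% of all protein-coding windows, but its promoter summit lies outside the promoter of the 5' end that RefSeq gives. The CACGTG count (2 summits) and the count found in both replicates stayed within 1.5 times under every alternative run for them, the second being 4 of 5 when only the highest 3870 peaks of each replicate were used. Depth is unknown, so a missing peak sets no limit on binding.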

Other observations

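Beyond promoters, several lipid genes had higher peaks in their wider windows than in any promoter of the phospholipid lists. These were chosen after their values were seen. The triglyceride lipase gene atgl-1 (chromosome III), whose enzyme shares the patatin fold with calcium-independent phospholipases, had 2 IDR summits in its window, the higher with a pooled score of 289.8 at rank 72 and rank 71 in both replicates. That summit lay 1770 bp from the atgl-1 5' end and had no CACGTG within 50 bp. The acyltransferase gene acl-4 (chromosome X) had 1, with a score of 192 at rank 206, ranks of 196 in replicate 1 and 261 in replicate 2, CACGTG within 50 bp and a distance of 1099 bp from its 5' end. The phosphatidylserine decarboxylase gene psd-1 had 4 IDR summits, the highest with a score of 132 at rank 481 and 3045 bp from its 5' end. The atgl-1 and acl-4 peaks had higher scores than the ipla-2 peak, and none of these reached that of ipla-6.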
